A study of Mus musculus with 64 samples.

Results

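The 9 genes for the pore-forming subunits of AMPA and kainate receptors were followed through the cortex and hippocampus of Cyfip2+/R87C knock-in (KI) mice, a model of West syndrome. The members were named by family: *Gria1*, *Gria2*, *Gria3* and *Gria4* encode the AMPA receptor subunits GluA1 to GluA4, and *Grik1*, *Grik2*, *Grik3*, *Grik4* and *Grik5* encode the kainate receptor subunits GluK1 to GluK5. All 9 were found among the 18432 genes of the deposited table, and all 9 passed the filter on low values in every comparison. The KI mice carry a heterozygous p.Arg87Cys allele of *Cyfip2*, a component of the actin-regulating WAVE complex, in every cell of the body, and the controls were wild-type (WT) littermates, all of the C57BL/6N strain. Bulk RNA was sequenced at postnatal week (PWK) 1, 7, 14 and 28, with 4 libraries in each of 16 groups of region, genotype and age, 64 in all. The ages were set by the course of the disease: PWK 1 covers the neonatal spasms, PWK 7 a seizure-free phase, PWK 14 the onset of spontaneous recurrent seizures, and PWK 28 a more severe stage. The question for these genes was at which of these stages, and in which region, the receptor subunits differ between KI and WT mice.

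AMPA receptors are tetramers that carry most of the fast excitatory current in the brain, and kainate receptors are related tetramers that tune release and excitability on both sides of the synapse. GluA2 decides whether an AMPA receptor passes calcium, because its transcript is edited by the enzyme ADAR2 so that a glutamine codon in the pore loop is read as arginine. GluK1 to GluK3 can form kainate receptors by themselves, whereas GluK4 and GluK5 are high-affinity partners that must join with them. In the hippocampus, GluK4 is best known from CA3 pyramidal neurons and their mossy fibre synapses, and GluA1 is abundant in pyramidal neurons and is central to synaptic plasticity.

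The 9 genes share a short stretch of code in this pore loop, which is shown here because it holds the site that sets calcium passage and because its codon is what the genome supplies before editing. Each line gives 27 bases of the coding strand, 5′ to 3′, from the GENCODE M21 transcripts on GRCm38, with the glutamine codon of the Q/R site in capitals.
Gria1: ggggccttcatgCAGcaaggatgtgac
Gria2: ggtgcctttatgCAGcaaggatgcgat
Gria3: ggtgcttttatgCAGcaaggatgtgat
Gria4: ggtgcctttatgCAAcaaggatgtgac
Grik1: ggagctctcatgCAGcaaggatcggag
Grik2: ggagctctcatgCAGcaaggttctgag
Grik3: ggctccctgatgCAGcaaggatctgaa
Grik4: ggaggcttcatgCAGcaaggctccact
Grik5: ggtggcttcatgCAGcagggctcggag
The codon was CAG in 8 of the 9 genes and CAA in *Gria4*. Against *Gria2*, 23 to 25 of the 27 bases were the same in the other AMPA subunits and 19 to 20 in the kainate subunits. The codon of *Gria2*, whose transcript is edited there, lies at chr3:80706911-80706913 on the minus strand, in exon 11 of 16. The same site is known to be edited in *Grik1*, at chr16:87940542-87940544, and in *Grik2*, at chr10:49244329-49244331. The values reported here are totals per gene, so they do not separate edited from unedited transcripts.

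The genes lie apart from each other, except that *Gria4* and *Grik4* share chromosome 9. *Gria2* spans chr3:80681450-80802835 on the minus strand, *Gria3* chrX:41400854-41678601 on the plus strand, and *Gria1* chr11:57011387-57330244 on the plus strand. *Grik5*, the shortest of the 9, spans chr7:25009849-25072346 on the minus strand, *Grik2* chr10:49094833-49788766 on the minus strand, *Grik3* chr4:125490700-125714173 on the plus strand and *Grik4* chr9:42518135-42944493 on the minus strand. No other gene of the table overlapped a member. The exons of *Gria2* and *Grik2* are among the poorest in G and C of all genes in the table, at 36.8% and 37.9%, whereas those of *Grik5* are among the richest, at 62.3%.

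In each library the deposited normalized counts added up to 29.2 to 32.6 M. These are estimated counts after scaling, so the depth of a library can no longer be read from them, and precision was judged from the spread between the 4 libraries of a group. The standard deviation of a member was 6.52% of its mean in the median group, and between 1.07% and 22.4% over the 144 groups of gene, region, genotype and age. The regions stood apart in a marker: *Prox1*, a marker of dentate granule cells, lay between 3808 and 5545 in WT hippocampus and between 423 and 679 in WT cortex. Each p-value measures the spread between these libraries, and the labels do not state which cortex and hippocampus came from the same mouse. In bulk tissue, fewer cells that express a gene and less of its RNA per cell cannot be told apart.

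In KI mice, none of the 9 genes was called against WT at PWK 1 or PWK 7 in either region, where at most 0.0218% of all genes were called. Differences were called at PWK 14 and PWK 28. *Gria3* and *Gria2* fell, *Grik2* fell in the cortex and *Grik3* in the hippocampus, and *Grik4* and *Grik5* rose in the cortex at PWK 28. At PWK 28 *Gria2* lost its calls after correction for GC content and length (limma adjusted p = 0.423 in cortex, 0.189 in hippocampus). In cortex at PWK 28 the differences of the 9 genes rose with GC content (rank correlation 0.85, corrected 0.6, all genes 0.068). Uncorrected, this correlation was 0.65 in cortex at PWK 14, and 0.43 and 0.38 in hippocampus at PWK 14 and PWK 28. The reason was not tested. Differentially expressed genes (DEGs) were called at a limma adjusted p under 0.05, corrected over all genes tested. In cortex at PWK 14, 1 of 9 members was called, lower in KI, where 5.18% of all genes were called and 2.7% were lower. In cortex at PWK 28, 5 of 9 were called against 22.2% of all genes, with 3 lower (10% of all genes) and 2 higher (12.2%). In hippocampus, 3 of 9 were called at PWK 14 against 15.6% of all genes, and 2 of 9 at PWK 28 against 15.8%, all of them lower, as were 7.95% and 6.91% of all genes. KI values were apart from WT values for 3 and 5 members in cortex at these ages, against 14.2% and 25.8% of all genes, and for 3 members in hippocampus at each age, against 23.8% and 21.5%. At PWK 1 the lowest limma adjusted p of a member was 0.908 in cortex and 0.887 in hippocampus, where 0.00546% and 0.0109% of all genes were called. At PWK 7 it was 0.437 and 0.856, where 0.00545% and 0.0218% were called, and only *Gria4* in cortex had groups that did not overlap, as did 4.62% of all genes. With so few genes called at PWK 1 and PWK 7, the absence of calls there singles out nothing about the receptors. *Gria1*, *Gria4* and *Grik1* were called in none of the 8 comparisons of KI with WT.

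**Figure D1:**
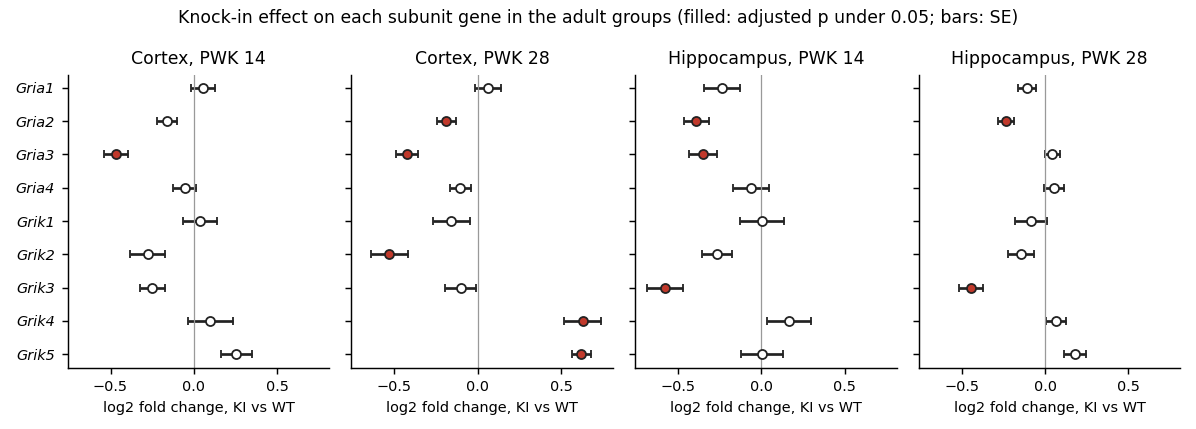
Log2 fold change of KI against WT (x axis) for each subunit gene (y axis) in the 4 adult comparisons, with bars for the SE and filled points where the limma adjusted p was under 0.05. *Gria3* was lowest of the AMPA genes in cortex at both ages, and *Grik4* and *Grik5* stood at 0.63 and 0.62 in cortex at PWK 28.

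*Gria3* had the largest fall among the AMPA genes in the cortex. At PWK 14 its 4 KI libraries held 7691, 7164, 9184 and 7910 normalized counts and the 4 WT libraries 11075, 11698, 10649 and 10587. All KI libraries were lower than all WT libraries, and the gene fell by 0.47 ± 0.07 on the log2 scale (SE, limma adjusted p = 0.00691). At PWK 28 the KI libraries held 6759, 8196, 7210 and 7792 and the WT libraries 9699, 9922, 10268 and 10210. The groups were again apart, and the gene fell by 0.42 ± 0.06 (limma adjusted p = 0.00150), a change of -25.5%.

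In the hippocampus, *Gria3* was lower at PWK 14 and not at PWK 28. At PWK 14 the KI libraries held 4889, 6334, 5855 and 6347 against 7500, 7270, 7259 and 7648 in WT. These groups did not overlap, and the gene fell by 0.35 ± 0.08 (limma adjusted p = 0.0231), but it was no longer called when WT replicate 1, 2 or 4 was left out, where limma gave adjusted p-values of 0.0694, 0.0580 and 0.0671. At PWK 28 the KI libraries held 6939, 7204, 6853 and 7039 and the WT libraries 6938, 7046, 6297 and 6948. The 2 groups overlapped, and the log2 difference was 0.04 ± 0.05 (limma adjusted p = 0.568). The effect at PWK 28 differed between the regions by 0.47 ± 0.08 on the log2 scale (hippocampus minus cortex, limma interaction adjusted p = 0.00249), where 3 of 9 members and 4.57% of all genes were called. At PWK 1, 7 and 14 no member was called in this test of the regions, as were 0.0%, 0.00543% and 2.85% of all genes. The change of the hippocampal effect from PWK 14 to PWK 28, 0.39 ± 0.10, was not called (limma adjusted p = 0.145), and this test of the ages called none of the 9 members in either region and 0.0% of all genes, while 2770 genes in cortex and 2274 in hippocampus had an unadjusted p under 0.05.

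*Gria2*, the subunit that keeps calcium out of AMPA receptors, was lower in the hippocampus at both late ages. At PWK 14 the KI libraries held 21179, 23924, 23391 and 24906 normalized counts against 32170, 27853, 30493 and 31734 in WT. No KI library reached the lowest WT library, and the gene fell by 0.39 ± 0.08 on the log2 scale (limma adjusted p = 0.0105), a change of -23.6%. At PWK 28 the KI libraries held 24617, 26358, 27022 and 25416 and the WT libraries 31463, 31936, 28192 and 30139. The gene fell by 0.23 ± 0.05 (limma adjusted p = 0.00905), again without overlap. Both falls were smaller after a correction for base composition: with an adjustment for GC content and gene length the fall at PWK 14 was -0.23 (limma adjusted p = 0.0299) and at PWK 28 it was -0.08 and no longer called (limma adjusted p = 0.189).

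*Gria2* was also lower in the KI cortex at PWK 28. Its KI libraries held 19218, 21913, 21051 and 22405 and its WT libraries 23986, 23447, 24536 and 24310. The groups did not overlap and the gene fell by 0.19 ± 0.06 (limma adjusted p = 0.0370). This call was lost without KI replicate 1 or 3 and without any of the 4 WT replicates, with adjusted p-values of up to 0.0969, and after the correction for GC content and length, which left -0.06 (limma adjusted p = 0.423). At PWK 14 the cortical difference was -0.16 ± 0.06 and was not called (limma adjusted p = 0.156). The region difference of the *Gria2* effect was called neither at PWK 14 (-0.23 ± 0.09, limma adjusted p = 0.204) nor at PWK 28 (-0.05 ± 0.07, limma adjusted p = 0.815).

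*Gria1* and *Gria4* were called at no age. *Gria1* had its largest difference in the hippocampus at PWK 14, where the KI libraries held 26375, 34428, 32201 and 26797 against 36525, 33753, 31461 and 38987 in WT. KI replicates 1 and 4 lay below all WT libraries and KI replicates 2 and 3 among them, and the log2 difference was -0.24 ± 0.11 (limma adjusted p = 0.169). In cortex at PWK 7 *Gria4* held 4316, 4090, 4212 and 4079 in KI and 3871, 3846, 3843 and 3932 in WT, which did not overlap, and the difference of 0.11 ± 0.04 was not called (limma adjusted p = 0.437). *Gria4* stayed within 0.11 of WT on the log2 scale in all 8 comparisons.

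**Figure D2:**
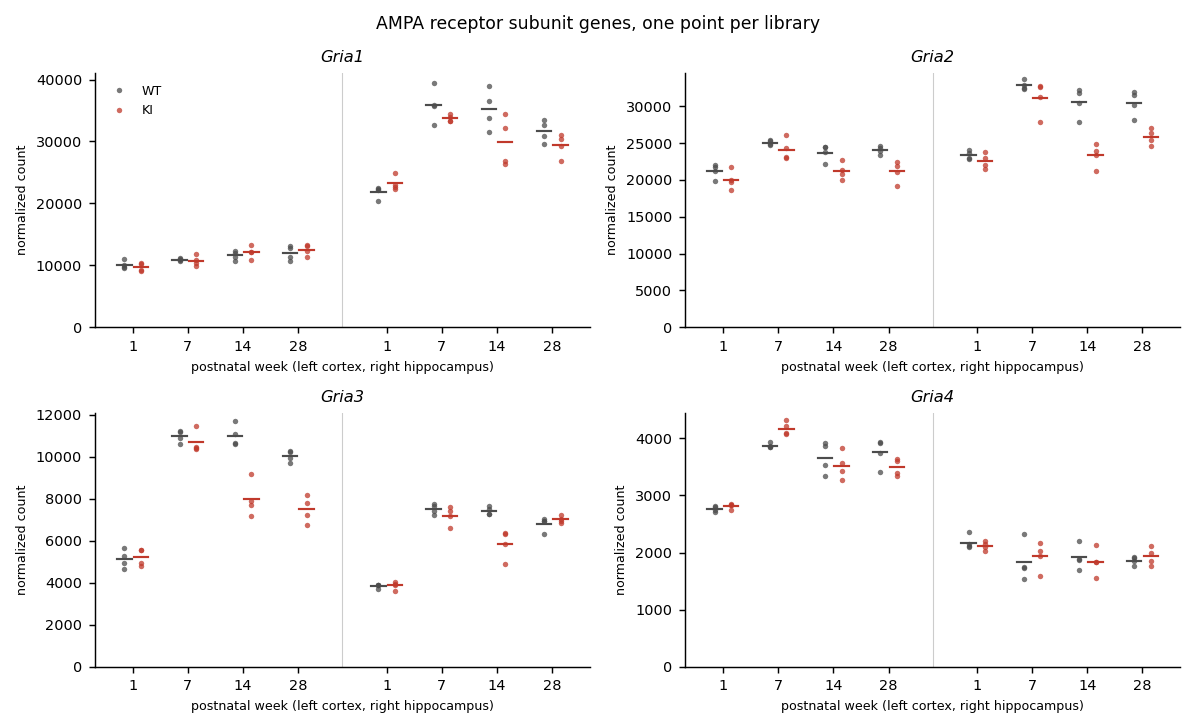
Normalized count (y axis, from 0) of the 4 AMPA subunit genes in every library by postnatal week (x axis, cortex left and hippocampus right), with WT in grey, KI in red and a bar at each group mean. *Gria3* in cortex lies between 6759 and 9184 in KI at PWK 14 and 28 and between 9699 and 11698 in WT.

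Among the kainate receptor genes, *Grik4* and *Grik5* rose and *Grik2* fell in the KI cortex at PWK 28. *Grik5*, the main high-affinity partner subunit in the forebrain, was higher in the cortex of KI mice at PWK 28, where its KI libraries held 8075, 8143, 8629 and 7836 normalized counts and its WT libraries 5245, 5535, 4933 and 5548. The lowest KI library was far above the highest WT library, and the gene rose by 0.62 ± 0.06 on the log2 scale (limma adjusted p = 0.000177), a rise of 53.8%. At PWK 14 the KI libraries held 9702, 8704, 7434 and 7059 and the WT libraries 6697, 6677, 6737 and 7271. KI replicates 1 and 2 stood above all others, KI replicate 4 lay within the WT range, and the difference of 0.25 ± 0.09 was not called (limma adjusted p = 0.140).

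The WT level of *Grik5* was itself lower at PWK 28. In WT cortex the gene fell by 0.37 ± 0.05 from PWK 14 to PWK 28 (limma adjusted p = 0.00149), with all 4 libraries at PWK 28 below those at PWK 14, whereas the KI libraries at PWK 28 lay within the range of those at PWK 14. The KI effect was larger at PWK 28 than at PWK 14 by 0.37 ± 0.11, which was not called (limma adjusted p = 0.153). The comparisons of KI with WT at PWK 28 and of WT between these ages share the WT libraries of PWK 28. From the labels, age cannot be told apart from any batch made per age.

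In the hippocampus, *Grik5* was not called at either age. At PWK 28 its KI libraries held 5926, 5946, 7098 and 5827 and its WT libraries 5645, 5364, 5683 and 5121. All KI libraries lay above all WT libraries, with KI replicate 3 far above the rest, and the difference was 0.18 ± 0.07 (limma adjusted p = 0.0852). The effect at PWK 28 was larger in cortex than in hippocampus, by -0.44 ± 0.09 for hippocampus minus cortex (limma interaction adjusted p = 0.00810).

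*Grik4*, the other high-affinity subunit, was likewise higher in the cortex at PWK 28, with 1785, 1175, 1560 and 1446 normalized counts in KI and 938, 1001, 968 and 910 in WT. Every KI library was above every WT library, and the gene rose by 0.63 ± 0.11 on the log2 scale (limma adjusted p = 0.00326). At PWK 14 its KI libraries held 1337, 1164, 912 and 816 against 992, 991, 873 and 1030 in WT. KI replicates 1 and 2 were above the WT range and KI replicate 4 below it, and the difference was 0.10 ± 0.14 (limma adjusted p = 0.747). In hippocampus at PWK 28 the difference was 0.07 ± 0.06 (limma adjusted p = 0.524), and the effect differed between the regions by -0.56 ± 0.13 (limma interaction adjusted p = 0.0211).

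Other neuronal markers moved in the same cortical libraries. The summed level of 6 excitatory neuron markers lay between 75467 and 99261 normalized counts in KI cortex at PWK 28 and between 51258 and 57350 in WT, with *Slc17a7*, the vesicular glutamate transporter, rising by 0.89 ± 0.10 (limma adjusted p = 0.000367). Of these 6 markers, 3 rose and none fell. The summed 6 general neuron markers, of which 1 fell, overlapped, from 165832 to 177764 in KI and from 161586 to 174793 in WT. Of 3 genes listed as markers of CA3 pyramidal neurons, *Bok* rose by 1.26 and *Coch* by 0.46, while *Iyd* was at 12.4 normalized counts or less in all 8 libraries. CA3 belongs to the hippocampus and these libraries to the cortex, so these values are not read as a CA3 signal. *Gria1* had a log2 difference of 0.06 ± 0.08 in these cortical libraries (limma adjusted p = 0.603). The part of these marker changes in the rise of *Grik4* and *Grik5* was not tested.

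*Grik2*, the most widely expressed of the subunits that form receptors by themselves, was lower in KI cortex at PWK 28. Its KI libraries held 1294, 1683, 1514 and 1977 normalized counts against 2337, 2129, 2402 and 2370 in WT. The groups were apart, with KI replicate 4 nearest to WT, and the gene fell by 0.53 ± 0.11 on the log2 scale (limma adjusted p = 0.00808), a change of -30.7%. After the correction for GC content and length the fall was -0.41 (limma adjusted p = 0.0130). At PWK 14 its cortical KI libraries held 1329, 1816, 1922 and 1894 and its WT libraries 2083, 2088, 2169 and 2011. These did not overlap, KI replicate 1 was far below the rest, and the difference of -0.28 ± 0.11 was not called (limma adjusted p = 0.160).

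In hippocampus *Grik2* differed by -0.27 ± 0.09 at PWK 14 (limma adjusted p = 0.0753) and by -0.14 ± 0.08 at PWK 28 (limma adjusted p = 0.227), with overlapping groups at both ages. The region difference of its effect at PWK 28, 0.39 ± 0.14, was not called (limma adjusted p = 0.147).

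*Grik3*, a low-affinity subunit, was lower in the hippocampus of KI mice at both late ages. At PWK 14 its KI libraries held 1413, 1343, 1054 and 1567 normalized counts and its WT libraries 1995, 2061, 2027 and 1862. No KI library reached the WT range, and the gene fell by 0.58 ± 0.11 on the log2 scale (limma adjusted p = 0.00912), a change of -32.9%. At PWK 28 the KI libraries held 1428, 1544, 1306 and 1441 and the WT libraries 2209, 1792, 1896 and 1903, again apart. The gene fell by 0.45 ± 0.07 (limma adjusted p = 0.00234). After the correction for GC content and length, both calls remained, at -0.57 and -0.44.

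A marker of cortical excitatory neurons also moved in these hippocampal libraries. *Tbr1*, a transcription factor of deep-layer cortical neurons, held 741, 1115, 844 and 1248 normalized counts in KI hippocampus at PWK 14 and 1491, 1661, 1842 and 1680 in WT, and fell by 0.78 ± 0.15 (limma adjusted p = 0.0102). Of the list of 6 excitatory neuron markers, 2 rose and 2 fell, and their sum overlapped, from 59493 to 93734 in KI and from 54374 to 64071 in WT. At PWK 28 *Tbr1* was not called, with a log2 difference of -0.22 ± 0.11 (limma adjusted p = 0.203). The log2 difference of *Gria4* in the KI hippocampus at PWK 14 was -0.06 ± 0.11 (limma adjusted p = 0.731). In the cortex, *Grik3* had its largest difference at PWK 14, -0.25 ± 0.08 without overlap, which was not called (limma adjusted p = 0.0853). The part of these markers in the hippocampal falls of *Grik3* and *Gria3* was not tested.

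Some glial markers also differed between KI and WT at the late ages, but not in every region and not all in the same direction. *Gfap*, the intermediate filament of reactive astrocytes, held 131431, 40059, 45880 and 47169 normalized counts in KI hippocampus at PWK 14 and 8842, 8972, 7502 and 9231 in WT, with KI replicate 1 far above the other KI libraries. It rose by 2.75 ± 0.32 (limma adjusted p = 0.00129), and at PWK 28 by 2.00 ± 0.08 (limma adjusted p = 3.35e-07). In cortex it rose by 1.56 ± 0.27 at PWK 14 (limma adjusted p = 0.0112), where KI replicate 1 was again the highest at 12404, and by 1.52 ± 0.23 at PWK 28 (limma adjusted p = 0.00148). Of the list of 6 astrocyte markers, 2 rose in hippocampus at PWK 14 and 3 at PWK 28, with none lower, while in cortex 2 rose and 1 fell at PWK 14 and 1 rose and 2 fell at PWK 28. The summed astrocyte markers were apart in hippocampus, from 208529 to 309747 in KI and from 136778 to 163258 in WT at PWK 14, and from 191564 to 222642 against 138137 to 147534 at PWK 28. In cortex the sums overlapped, from 134063 to 158730 in KI and from 139197 to 166579 in WT at PWK 14, and from 136193 to 155958 against 126845 to 151184 at PWK 28.

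Of 6 microglia markers, 4 rose in hippocampus at PWK 28, where their sum lay between 9664 and 10581 in KI and between 7574 and 8698 in WT. None was called in either region at PWK 14, and 1 rose in cortex at PWK 28. Of 8 interneuron markers, 4 rose and 2 fell in cortex at PWK 14 and 4 rose and 1 fell at PWK 28, with sums of 35449 to 43482 in KI and 33329 to 34375 in WT at PWK 14 and of 42354 to 58544 against 35534 to 41201 at PWK 28. Of 4 CA1 pyramidal neuron markers, 2 fell in hippocampus at PWK 14, where their sum was 12195 to 14410 in KI and 15737 to 17536 in WT. The part of these glial and neuronal marker changes in the member differences was not tested.

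*Grik1*, the scarcest member, held between 280 and 437 normalized counts in the adult KI libraries of PWK 14 and 28 and between 269 and 398 in the WT libraries. The groups overlapped at every age and in both regions. Its largest difference, -0.20 ± 0.10 in cortex at PWK 7, was not called (limma adjusted p = 0.683).

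**Figure D3:**
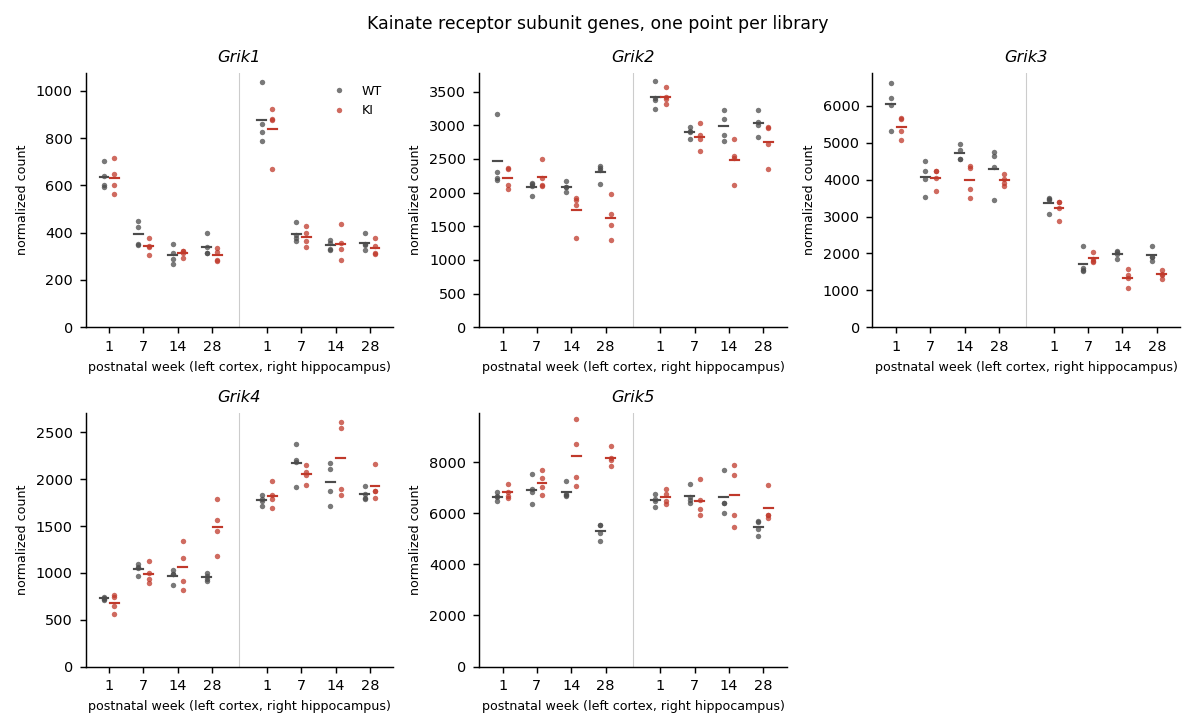
Normalized count (y axis, from 0) of the 5 kainate subunit genes in every library by postnatal week (x axis, cortex left and hippocampus right), with WT in grey, KI in red and a bar at each group mean. In cortex at PWK 28 *Grik5* lies between 7836 and 8629 in KI and between 4933 and 5548 in WT, and *Grik2* between 1294 and 1977 in KI and between 2129 and 2402 in WT.

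Since both genes of a ratio come from the same library, a factor that scales a whole library cancels in a ratio between subunits. Length factors, which differ between genes, do not cancel. The ratio of *Gria2* to *Gria1* compares the calcium-excluding subunit with its most common partner. In cortex at PWK 28 it was 1.69, 1.79, 1.59 and 1.70 in the KI libraries and 2.23, 2.07, 1.92 and 1.85 in the WT libraries, all of them higher than in KI. In hippocampus at PWK 28 it was 0.840, 0.851, 0.887 and 0.949 in KI and 0.962, 0.954, 0.951 and 0.978 in WT, where KI replicate 4 came close to the WT range. The log2 difference was -0.25 ± 0.07 in cortex and -0.13 ± 0.04 in hippocampus (SE, n = 4 each, exact two-sided permutation p = 0.0286 for both). After the correction for GC content and length, an alternative chosen after seeing the data, it was -0.13 ± 0.07 in cortex (exact two-sided permutation p = 0.114) and turned to 0.02 ± 0.05 in hippocampus (exact two-sided permutation p = 0.686), with overlapping groups in both.

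The ratio of *Grik5* to *Grik2* compares a partner subunit with a subunit that can stand alone. In cortex at PWK 28 it was 6.24, 4.84, 5.70 and 3.96 in KI and 2.24, 2.60, 2.05 and 2.34 in WT, a log2 difference of 1.15 ± 0.16 (exact two-sided permutation p = 0.0286). At PWK 14 it was 7.30, 4.79, 3.87 and 3.73 in KI and 3.22, 3.20, 3.11 and 3.62 in WT cortex, with KI replicate 1 far above the others and no overlap. That log2 difference was 0.53 ± 0.23 (exact two-sided permutation p = 0.0286). In hippocampus at PWK 28 it was 2.18, 2.00, 3.03 and 1.97 in KI and 1.75, 1.79, 1.86 and 1.81 in WT, with a log2 difference of 0.33 ± 0.15 (exact two-sided permutation p = 0.0286). The correction for GC content and length left 0.98 ± 0.13 and 0.53 ± 0.21 in cortex at PWK 28 and PWK 14, both without overlap, and 0.18 ± 0.14 with overlap in hippocampus at PWK 28 (exact two-sided permutation p = 0.200).

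With 4 libraries against 4, 0.0286 is the smallest p that the permutations can give. Over the 16 tests of the 2 ratios, the lowest Benjamini-Hochberg value was 0.0914, so none of the exact permutation tests passed 0.05 after correction. The ratios of the other 11 comparisons overlapped between KI and WT.

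**Figure D4:**
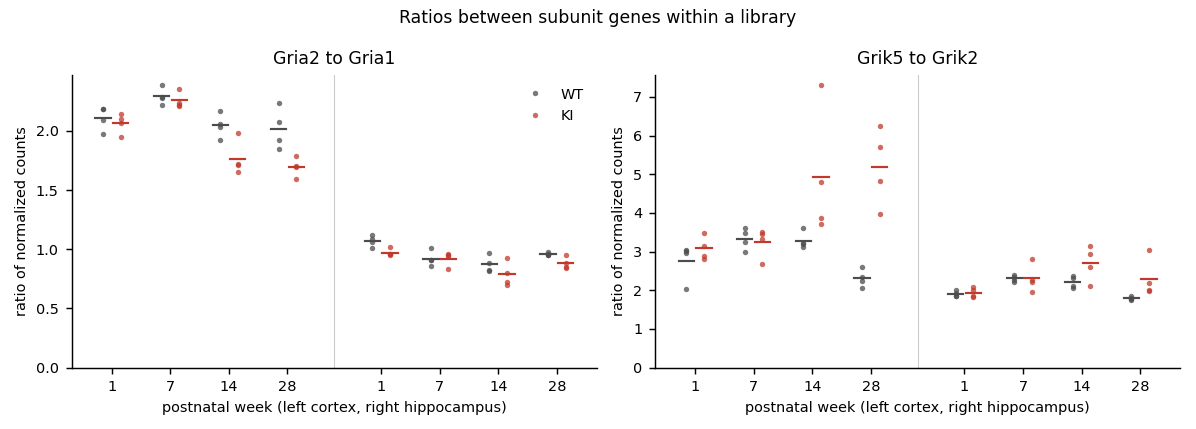
Ratio of normalized counts within each library (y axis, from 0) for *Gria2* to *Gria1* and *Grik5* to *Grik2*, by postnatal week (x axis, cortex left and hippocampus right), with WT in grey, KI in red and a bar at each group mean. The ratio of *Grik5* to *Grik2* in cortex at PWK 28 lies between 3.96 and 6.24 in KI and between 2.05 and 2.60 in WT.

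In WT mice the 9 genes changed most between PWK 1 and PWK 7, with AMPA genes mostly rising and *Grik1* and *Grik3* falling. In cortex 7 of 9 were called, where 65.3% of all genes were, with 5 higher (32.5% of all genes) and 2 lower (32.7%). In hippocampus 8 of 9 were called, where 61.3% of all genes were, with 4 higher (30.9%) and 4 lower (30.4%). These shares are near those of all genes, so they single out nothing about the receptors, and the directions of the members are given as a description. In this and the later comparisons of WT ages, age cannot be told apart from any batch made per age. *Gria3* rose 2.14-fold in cortex, from 5286, 4669, 5658 and 4954 normalized counts to 11169, 10608, 11226 and 10876 (limma adjusted p = 9.23e-09), and 1.96-fold in hippocampus. No library at PWK 1 reached those at PWK 7.

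*Gria1* rose 1.64-fold in hippocampus, from 20453, 22534, 22136 and 22253 to 35830, 39494, 32630 and 35657 (limma adjusted p = 7.35e-07). In cortex it rose by 0.12 ± 0.05 with overlapping groups (limma adjusted p = 0.0480), a call that 7 of the 8 fits without 1 library did not keep. *Gria2* rose 1.18-fold in cortex and 1.41-fold in hippocampus. *Gria4* rose 1.40-fold in cortex (limma adjusted p = 2.5e-07), from 2702, 2817, 2800 and 2739 to 3871, 3846, 3843 and 3932. In hippocampus it fell by 0.26 ± 0.11 (limma adjusted p = 0.0486), a call kept only in the fit that left out WT replicate 3 of PWK 7.

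Among the kainate genes, *Grik1* fell to 0.618 of its PWK 1 level in cortex and, in hippocampus, to 0.452, from 789, 858, 825 and 1036 to 389, 378, 446 and 366 (limma adjusted p = 1.04e-06). *Grik3* was reduced to 0.673 of it in cortex and 0.505 in hippocampus. *Grik4* rose 1.43-fold in cortex and 1.22-fold in hippocampus. *Grik2* fell by 0.24 ± 0.04 in hippocampus (limma adjusted p = 0.000609), and its cortical difference of -0.23 ± 0.10 was not called (limma adjusted p = 0.0601). *Grik5* was not called, with 0.05 ± 0.05 in cortex and 0.03 ± 0.04 in hippocampus.

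Between PWK 7 and PWK 14 no member was called in WT mice, where 5.32% of all genes were called in cortex and 1.99% in hippocampus. From PWK 14 to PWK 28, *Grik5* was the 1 member called in each region, where 12.0% and 8.11% of all genes were called and 6.78% and 4.88% were lower. In hippocampus it held 6393, 6415, 6003 and 7675 normalized counts at PWK 14 and 5645, 5364, 5683 and 5121 at PWK 28, and fell by 0.28 ± 0.07 (limma adjusted p = 0.0365). The groups did not overlap, but the call was lost in 6 of the 8 fits without 1 library, namely without WT replicate 1 or 2 of PWK 14 or any replicate of PWK 28, and after the correction for GC content and length, which left -0.10 (limma adjusted p = 0.335). In cortex the fall of *Grik5* held in every such fit.

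The 2 regions held the subunits in different proportions at all ages. In WT mice 8 of 9 genes differed between hippocampus and cortex at PWK 1 and 7 of 9 at each later age, where 34.7%, 40.8%, 34.6% and 37.8% of all genes did. *Gria1*, *Gria2*, *Grik2* and *Grik4* were higher in hippocampus and *Gria3*, *Gria4* and *Grik3* lower, at all 4 ages, and for *Gria2* at PWK 1 the call was lost in 4 of the 8 fits without 1 library (limma adjusted p up to 0.0837). *Gria1* had the widest gap, with a hippocampal level of 2.17, 3.28, 3.03 and 2.65 times the cortical level at PWK 1, 7, 14 and 28. At PWK 28 it held 32705, 33477, 29653 and 30807 normalized counts in hippocampus and 10743, 11316, 12747 and 13171 in cortex.

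*Grik4* was 2.44, 2.08, 2.02 and 1.93 times higher in hippocampus at the same 4 ages. *Grik3* stood at 0.559 of the cortical level at PWK 1 and between 0.420 and 0.456 later, and *Gria4* went from 0.786 at PWK 1 to between 0.467 and 0.521 later. *Gria3* stayed between 0.675 and 0.747, *Grik2* between 1.31 and 1.43 and *Gria2* between 1.10 and 1.31. *Grik1* was higher in hippocampus only at PWK 1, at 1.38 times (limma adjusted p = 0.00184), and *Grik5* was called at no age, with differences between -0.05 and 0.04.

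**Figure D5:**
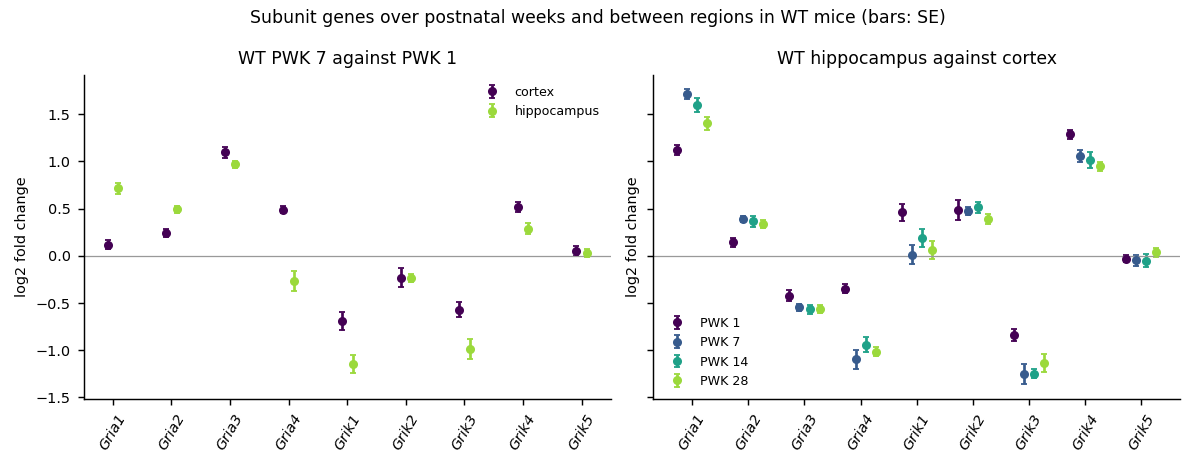
Log2 fold change (y axis, with bars for the SE) of each subunit gene (x axis) in WT mice, for PWK 7 against PWK 1 in both regions (left) and for hippocampus against cortex at the 4 ages (right). *Gria3* rose by 1.10 and 0.97 between these ages, and *Gria1* and *Grik4* lie above 0 and *Gria4* and *Grik3* below 0 at all ages between the regions.

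Levels of different genes were set beside each other only per kilobase of exon. In WT cortex at PWK 28, *Gria1* took 38.5% ± 1.7 of the normalized counts per kilobase of the 4 AMPA genes (SD, n = 4), *Gria2* 30.1% ± 1.3, *Gria3* 19.8% ± 0.56 and *Gria4* 11.6% ± 0.31. In WT hippocampus *Gria1* took 64% ± 0.40, *Gria2* 23.9% ± 0.17, *Gria3* 8.44% ± 0.22 and *Gria4* 3.61% ± 0.080. With the length of the longest coding transcript in place of all exons, *Gria2* passed *Gria1* in cortex, at 32.7% against 30.4%, so the order of these 2 genes in cortex depends on the length used. Of the kainate genes, *Grik5* took 54.4% ± 2.6 in cortex and 56.6% ± 0.82 in hippocampus, and *Grik1* the least, 2.69% ± 0.33 and 2.84% ± 0.20. *Grik3* was the second in cortex, at 25.2% ± 2.65. In hippocampus *Grik4*, at 16.6% ± 0.89, stood before *Grik2*, at 12.3% ± 0.21, and *Grik3*, at 11.7% ± 0.82, and these last 2 lay within their spread of each other.

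Genes that work with these receptors were counted in the same comparisons, where the share of all genes called was 5.18% (PWK 14 cortex), 22.2% (PWK 28 cortex), 15.6% (PWK 14 hippocampus) and 15.8% (PWK 28 hippocampus). Of 21 auxiliary subunits and assembly factors, which set the gating and surface delivery of AMPA and kainate receptors, 1 was called in PWK 14 cortex, 7 in PWK 28 cortex (2 higher, 5 lower), and in hippocampus 10 at PWK 14 (3 higher, 7 lower) and 7 at PWK 28 (4 higher, 3 lower). Their median log2 differences were -0.08, -0.09, -0.20 and -0.09, where the medians over all genes were at most 0.01 in size. *Gsg1l*, an auxiliary subunit that dampens AMPA receptors, rose by 1.08 ± 0.11 in hippocampus at PWK 14 (limma adjusted p = 0.000775) and by 0.70 ± 0.06 at PWK 28 (limma adjusted p = 6.6e-05). *Prrt1*, an AMPA receptor auxiliary protein, fell by 0.76 ± 0.09 and by 0.57 ± 0.09 at the same ages, and *Neto1*, an auxiliary subunit of kainate receptors, fell by 0.36 ± 0.09 in cortex at PWK 14.

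Of 22 scaffolds, trafficking and recruitment partners, 5 were called in PWK 14 cortex and 8 in PWK 28 cortex, against 5.18% and 22.2% of all genes. In hippocampus 4 were called at each age, a share near the 15.6% and 15.8% of all genes called there. *Nptx2*, a neuronal pentraxin that clusters AMPA receptors and is induced by activity, rose by 3.18 ± 0.30 in hippocampus at PWK 14 (limma adjusted p = 0.000623) and by 1.79 ± 0.30 at PWK 28, and by 1.39 ± 0.22 in cortex at PWK 14. *C1ql3*, a secreted protein known to bind kainate receptors at mossy fibre synapses, rose by 0.73 ± 0.10 in cortex and by 0.52 ± 0.06 in hippocampus at PWK 28. Of the 9 NMDA and delta receptor subunits, 4 were called in cortex at PWK 28 (3 higher, 1 lower), none in cortex at PWK 14 and 1, lower, in hippocampus at each of these ages. At PWK 1 and PWK 7 none of the genes of these lists was called, where at most 0.0218% of all genes were.

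The RNA editing enzymes were read beside *Gria2*, *Grik1* and *Grik2*. *Adarb1*, which encodes ADAR2, held 9050, 7741, 8467 and 8500 normalized counts in KI cortex at PWK 28 and 6267, 5933, 6558 and 6636 in WT, and rose by 0.41 ± 0.06 (limma adjusted p = 0.00144). In hippocampus at PWK 28 it held 4429, 5256, 4905 and 4841 in KI and 5392, 5827, 5400 and 5551 in WT, and fell by 0.19 ± 0.05 (limma adjusted p = 0.0345). The groups did not overlap in either region, and the directions were opposite. At PWK 14 *Adarb1* was not called, with -0.07 ± 0.05 in hippocampus (limma adjusted p = 0.371) and 0.10 ± 0.07 in cortex (limma adjusted p = 0.447). *Adar* fell by 0.18 ± 0.05 in hippocampus at PWK 28, and *Adarb2*, an inactive relative, fell by 0.60 ± 0.17 in hippocampus at PWK 14.

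Across all 64 libraries, which differ mainly by region and age, each member had genes with a similar pattern among 12324 protein-coding genes with a mean of at least 100. These are Pearson correlations over libraries that share a normalization, and they are a description. *Gria1* was most like *Nr3c2* (r = 0.989) and *Pkp2* (0.983), *Gria3* most like *Ap3m2* and *Ppm1k* (both 0.962), and *Gria4* most like *Fut9* and *Cckbr* (both 0.965). *Gria2* was most like *Prkca* (0.926) and *Cacnb2* (0.911). Among the kainate genes, *Grik1* was most like *Pdgfra* (0.945) and *Fabp7* (0.939), *Grik2* like *Kit* (0.926) and *Pygo1* (0.917), *Grik3* like *St6gal2* and *Mgat5b* (both 0.961), and *Grik4* like *Sema3e* (0.955) and *Golm1* (0.939). *Grik5* had the weakest likeness, to *Trim3* (0.807) and *Atp6v0a1* (0.786).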

How the data were processed

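Per the labels and the methods, stranded libraries of cortex and hippocampus were sequenced as paired ends, and the authors quantified transcripts on GRCm38 with Salmon (0.11.2 in the submitters' processing notes, another version in the methods), summed them to genes and scaled them with DESeq2 (1.19.11 in the notes). The labels name an mRNA kit and the methods a total RNA kit. The deposited table holds this normalized signal, estimated counts divided by size and length factors. Only 24.1% to 52.3% of low values lay within 0.1 of whole reads, so counts were not recovered and no count model was run, although the plan had left room for one. Values were tested as log2(value + 1) with limma-trend (limma 3.58.1, R 4.3.3), 4 libraries against 4, over genes with a mean of at least 1, with Benjamini-Hochberg adjustment over all genes and a threshold of 0.05. Errors of limma differences are moderated SEs, those of the ratios are SEs from the variances of the KI and WT libraries without moderation, and those of the shares are SDs. Fold changes on this scale understate those of low genes. Ratios were tested with exact permutations (scipy 1.17.1). Interactions used all 16 libraries concerned.

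The members and gene lists were chosen with earlier results of these data known. Members were named wherever called, the 2 most similar genes for each, and up to 3 called genes per partner list and comparison. Gene IDs, positions and lengths came from GENCODE M21, which matched 18420 of 18432 IDs. The limma fit was tested on simulated data. Alternatives were a pseudocount of 10, other filters and scalings, a fit of all 64 libraries, sample weights, a replicate block, a correction for GC content and length (splines with 4 degrees of freedom, extended to the ratios after seeing the data), and each library left out. The closing section gives their effect. A result on 1 marker gene is not reported here.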

Additional observations from a re-analysis of the deposited data

Results flagged for a closer look

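The knock-in effect at PWK 28 differed between the regions for 3 members by limma's interaction test, given as hippocampus minus cortex on the log2 scale. The difference was 0.47 for *Gria3* (limma adjusted p = 0.00249), -0.56 for *Grik4* (0.0211) and -0.44 for *Grik5* (0.00810). Every fit without 1 of the 16 libraries kept these 3 calls, with highest adjusted p-values of 0.00696, 0.0481 and 0.0223.

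In 9 of the 144 groups of 4 libraries, 1 library stood far from the other 3 by Dixon's test, which chance alone flags in about 1 of 20 groups. In cortex these were *Gria3* in KI replicate 1 of PWK 7 (11483 normalized counts, the others between 10388 and 10479), *Gria4* in KI replicate 2 of PWK 1 (2752, the others from 2835 to 2848), *Grik2* in WT replicate 1 of PWK 1 (3165, the others from 2187 to 2309) and *Grik5* in WT replicate 4 of PWK 14 (7271, the others from 6677 to 6737). In hippocampus they were *Gria3* in WT replicate 2 of PWK 1 (3673, the others from 3873 to 3902) and in WT replicate 3 of PWK 28 (6297, the others from 6938 to 7046), *Grik3* in WT replicate 2 of PWK 1 (3064, the others from 3436 to 3509) and in WT replicate 3 of PWK 7 (2195, the others from 1535 to 1596), and *Grik5* in KI replicate 3 of PWK 28 (7098, the others from 5827 to 5946).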

How the results depend on the processing

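Of 60 member effects called, 52 were called under all alternatives tried. The losses among KI effects are given in the report, except under the replicate block. The labels do not say what equal numbers share, and not every same-numbered pair correlated above 0.1: 17 of 32 pairs of cortex and hippocampus libraries did (mean 0.14, against -0.046 for different numbers) and 10 of 32 of KI and WT. With the replicate block, *Gria2* (adjusted p = 0.0519) and *Gria3* (0.0515) were not called in hippocampus at PWK 14, leaving 1 of 9 members, *Gria2* was not in cortex at PWK 28 (0.0650), and *Grik5* was not between PWK 14 and 28 in WT hippocampus, leaving 0. The fit of all 64 libraries called 3 members in cortex and 5 in hippocampus at PWK 14, 1 for WT cortex between PWK 7 and 14, 1 for the region difference at PWK 14, and 2 in cortex and 1 in hippocampus for the change of the KI effect between PWK 14 and 28. Sample weights called 1 and 2 for the same cortical comparisons. The correction for GC content and length left 1 member in hippocampus at PWK 28 and gave 2 for WT cortex between PWK 14 and 28, as did total-sum scaling. Under total-sum scaling the uncalled *Grik5* difference between PWK 1 and 7 in WT hippocampus turned to -0.022. Without 1 library, the number of members called ranged from 0 to 1 for WT between PWK 7 and 14 in each region, from 1 to 2 in cortex and from 0 to 1 in hippocampus between PWK 14 and 28, and from 0 to 1 for the change of the KI effect in each region. With the longest coding transcript, the *Gria2* share was 32.7% in cortex and 28.5% in hippocampus and the *Grik5* share 59.1% and 60.4%. Of 137 effects called nowhere, 29 changed sign under an alternative and 49 without 1 library, all at most 0.098 in size. A block that treats equal numbers in both regions as 1 mouse was added after the data were seen and changed no call. The correction of the ratios for GC content and length was also added then. It left *Gria2* to *Gria1* at -0.13 in cortex at PWK 28 and turned it to 0.0031 and 0.037 in cortex at PWK 1 and 7 and to 0.018 and 0.022 in hippocampus at PWK 14 and 28. It turned *Grik5* to *Grik2* to -0.045 in hippocampus at PWK 1 and left 0.18 at PWK 28.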
